A study of Mus musculus with 18 samples.

Results

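The 10 genes described here are Mobp, Mog, Ermn, Olig1, Olig2, Hapln2, Klk6 and Opalin, which in the nervous system mark oligodendrocytes, and Gfap and Aqp4, which mark astrocytes. They were taken by name from the 46583 genes of the deposited table, as genes of glia of the central nervous system whose level had been seen to be high in the middle region of the control cochlea. The set was chosen by the CPM of the control middle pool, so every comparison with that pool is a description and has no test. A filter on low counts kept 9 of the 10 among 17901 tested genes, and Opalin did not pass it.

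RNA was measured by sequencing in cochleae of 4-week-old mice, cut into base, middle and apex along the axis on which sound frequency is mapped. Mutant mice had Fst knocked out conditionally (cKO), and control mice were labelled wild type. Fst encodes follistatin, which is secreted and blocks activins. Both genotypes were labelled untreated, and the floxed allele, the Cre driver and the number of animals in a pool are not given in the sources used here. For each region and genotype, RNA was extracted from 1 pool of tissue and divided into 3 technical libraries, which gives the groups cKO base, cKO middle, cKO apex, control base, control middle and control apex. A p-value therefore covers the spread between libraries of a pool only, and a difference between pools may come from animals or dissection as well as from genotype or region.

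The 18 libraries held 24446800 to 33732700 counts each. Levels are given as counts, as counts scaled to the total of their library (CPM) and, where genes are compared with each other, as the authors' FPKM, which also divides by transcript length. A count of 0 in a library allows up to 3 counts, or 0.0889 to 0.123 CPM, and intervals and this floor cover counting error only because the reads carry no molecular identifiers. Markers of the cochlea itself were present in every pool: the summed level of 14 cochlear genes was 24723 to 34599 CPM across libraries, and none was at 0. Fst had 51, 49 and 45 counts in the cKO base libraries, 91, 97 and 114 in cKO middle and 260, 258 and 278 in cKO apex. It had 64, 63 and 59 counts in control base, 197, 191 and 166 in control middle and 671, 722 and 712 in control apex. Fst was thus lower in the cKO pool in each region without overlap of the libraries, with reads left in all cKO pools.

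Axons of the auditory nerve are wrapped in myelin by different cells along their path: Schwann cells wrap the peripheral part, and oligodendrocytes wrap the central part beyond a transition zone. MBP, CNP and MAG are made by both cell types, PMP22 and periaxin belong to Schwann cell myelin, and MOBP, MOG and OPALIN are characteristic of oligodendrocytes. OLIG1 and OLIG2 are basic helix-loop-helix transcription factors that set up the oligodendrocyte lineage. GFAP, an intermediate filament, and AQP4, a water channel, are astrocyte proteins, and both are also known from other cells, AQP4 from supporting cells of the organ of Corti.

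The 250 bases before the RefSeq start site are shown for Mobp, Mog, Hapln2 and Opalin, because these 4 genes mark the myelin or node of oligodendrocytes and include both the shared order of the pools (Mobp and Mog) and departures from it (Hapln2 and Opalin). RefSeq windows on GRCm38.p6 were found for 8 of the 10 genes, 7 of them oligodendrocyte genes. The Mobp window is chr9:120149492-120149741 on the plus strand, and on the minus strand are those of Mog (chr17:37023399-37023648), Hapln2 (chr3:88027512-88027761) and Opalin (chr19:41077114-41077363). Capitals mark matches, on either strand, to ACAAAG or ACAATG, motifs of SOX transcription factors, or to CANNTG, the E-box to which basic helix-loop-helix factors bind.
Mobp: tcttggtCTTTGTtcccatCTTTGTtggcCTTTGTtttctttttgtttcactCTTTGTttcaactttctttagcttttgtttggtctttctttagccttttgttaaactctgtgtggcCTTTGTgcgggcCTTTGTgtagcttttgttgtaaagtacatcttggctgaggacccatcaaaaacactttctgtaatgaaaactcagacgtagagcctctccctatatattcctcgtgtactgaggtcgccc
Mog: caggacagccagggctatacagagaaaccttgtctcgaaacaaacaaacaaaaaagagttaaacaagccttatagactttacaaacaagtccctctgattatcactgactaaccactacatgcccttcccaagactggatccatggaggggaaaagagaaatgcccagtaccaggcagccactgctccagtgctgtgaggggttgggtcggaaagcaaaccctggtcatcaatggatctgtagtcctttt
Hapln2: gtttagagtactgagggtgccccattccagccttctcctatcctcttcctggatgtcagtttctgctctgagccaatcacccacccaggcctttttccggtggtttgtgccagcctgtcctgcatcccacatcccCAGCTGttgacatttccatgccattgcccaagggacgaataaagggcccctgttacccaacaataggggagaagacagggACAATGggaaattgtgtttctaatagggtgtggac
Opalin: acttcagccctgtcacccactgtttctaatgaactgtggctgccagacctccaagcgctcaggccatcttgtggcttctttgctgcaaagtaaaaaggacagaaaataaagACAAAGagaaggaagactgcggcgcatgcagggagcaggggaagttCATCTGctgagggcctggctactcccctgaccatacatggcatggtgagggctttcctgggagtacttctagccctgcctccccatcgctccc

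The Mobp window held 6 SOX motif matches and no E-box, at 243, 231, 221, 198, 132 and 120 bases before the start. Hapln2 held 1 SOX motif at 35 bases and 1 E-box, Opalin held 1 SOX motif at 139 bases and 1 E-box, and Mog held no match to either. The 7 oligodendrocyte genes had 8 windows. A SOX motif was present in 6 of the 8 windows, against 25.2% of 32851 promoter windows of the same length. An E-box was present in 4 of the 8 windows, against 66.2% of windows. The Gfap window held neither motif. The matches describe letters and are not binding sites, and none of the motif letters overlapped between the 2 kinds of motif in the printed windows.

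MOBP is a small basic protein of the compact myelin made by oligodendrocytes, and its gene (ENSMUSG00000032517) lies on chromosome 9 from 120149707 to 120181484 in GRCm38. Mobp had 31.7, 32.5 and 34.1 CPM in the cKO base libraries, 14.3, 13.9 and 13.0 CPM in cKO middle and 0.297, 0.259 and 0.333 CPM in cKO apex. The control libraries had 21.4, 21.8 and 21.1 CPM in the base, 95.3, 96.0 and 100.5 CPM in the middle and 3.53, 4.52 and 4.00 CPM in the apex. No 2 of the 6 pools overlapped, and control middle stood above all others, followed by cKO base, control base, cKO middle, control apex and cKO apex. The cKO apex values rest on 8, 7 and 9 counts. Per length, Mobp had the highest level of the 10 genes in cKO base, at 13.6 FPKM, and in control middle, at 39.5 FPKM.

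MOG lies on the outermost surface of central myelin, and Mog (ENSMUSG00000076439) is on chromosome 17 from 37010743 to 37023398. The gene had 79, 96 and 72 counts in cKO base, 49, 39 and 47 in cKO middle and 1, 0 and 1 in cKO apex. Its control counts were 56, 40 and 41 in the base, 343, 357 and 306 in the middle and 8, 10 and 9 in the apex. The order of the pools was that of Mobp, and control base and cKO middle overlapped in CPM.

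Ermin, the product of Ermn (ENSMUSG00000026830, chromosome 2, 58045113 to 58052864), is a cytoskeletal protein of oligodendrocytes. Estimated counts of Ermn were 29.8, 30.7 and 30 in cKO base, 27, 13 and 20 in cKO middle and 3, 1 and 0 in cKO apex, while control libraries had 32, 39 and 22 in the base, 193, 174 and 231 in the middle and 10, 6 and 9 in the apex. The cKO base and control base libraries overlapped for this gene. Ermn overlaps Galnt5, which lies on the opposite strand, and whether counting used strand is not stated, so reads of the shared stretch cannot be told apart. Galnt5 did not have the order of Ermn, with 58 counts in cKO apex and 97 in cKO middle against 47.1 in control middle and 115 in control apex.

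Opalin (ENSMUSG00000050121, chromosome 19, 41061710 to 41077113), which encodes a membrane glycoprotein of the oligodendrocyte myelin, went against the grouping. It had 9, 9 and 10 counts in cKO base, 1, 1 and 0 in cKO middle and 0 in each cKO apex library. The control libraries had 3, 2 and 3 counts in the base, 2, 4 and 3 in the middle and 0, 1 and 0 in the apex. Its highest pool was thus cKO base, at 0.360 ± 0.0217 CPM (SD, n = 3 libraries), while control middle had 0.104 ± 0.0343 CPM (SD, n = 3 libraries), near the floor. The CPM ratio of cKO base to control base was 3.89 (exact 95% interval 1.73 to 9.87). The other 9 genes had their highest mean CPM in control middle.

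HAPLN2 is a link protein of the extracellular matrix at the nodes of Ranvier of central axons, and its gene (ENSMUSG00000004894) is on chromosome 3 from 88021750 to 88027583. Hapln2 had 42, 34 and 37 counts in cKO base, 40, 42 and 41 in cKO middle and 6, 10 and 10 in cKO apex. In control libraries it had 53, 59 and 40 counts in the base, 160, 195 and 176 in the middle and 8, 16 and 15 in the apex. Control base stood above cKO base for this gene, and the apex pools of both genotypes overlapped.

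KLK6 is a secreted serine protease that oligodendrocytes make in quantity, encoded on chromosome 7 from 43824499 to 43832030 (ENSMUSG00000050063). Klk6 had 27, 26 and 21 counts in cKO base, 24, 19 and 25 in cKO middle and 0 in each of the 3 cKO apex libraries. The control counts were 31, 31 and 11 in the base, 141, 122 and 114 in the middle and 7, 5 and 5 in the apex. The base pools overlapped, and control base replicate 3 stood below the other two control base libraries at 0.450 CPM, where those had 0.996 CPM or more.

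The lineage factor genes Olig2 (ENSMUSG00000039830, 91225457 to 91228677) and Olig1 (ENSMUSG00000046160, 91269772 to 91271933) are neighbours on chromosome 16 with 41094 bases between them. Olig1 had 75, 78 and 74 counts in cKO base, 18, 21 and 15 in cKO middle and 0, 1 and 0 in cKO apex, against 29, 18 and 26 in control base, 131, 143 and 124 in control middle and 7, 5 and 4 in control apex. Olig2 had 16, 21 and 13 counts in cKO base, 5, 2 and 3 in cKO middle and 0 in all cKO apex libraries, against 6, 4 and 2 in control base, 24, 30 and 22 in control middle and 2, 0 and 2 in control apex. In both genes cKO base was above control base with no overlap, and for Olig2 cKO base overlapped control middle. Per length Olig1 had 1.5 FPKM in cKO base and 2.31 FPKM in control middle, and Olig2 had 0.290 and 0.388 FPKM.

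Gfap (ENSMUSG00000020932), on chromosome 11 from 102887336 to 102900912, had 23.7 ± 0.488 CPM in cKO base, 18.7 ± 0.211 CPM in cKO middle and 1.59 ± 0.131 CPM in cKO apex (SD, n = 3 libraries each). Control levels of Gfap were 23.9 ± 1.48 CPM in the base, 60.5 ± 2.65 CPM in the middle and 4.34 ± 0.522 CPM in the apex (SD, n = 3 libraries each). Control middle was highest and cKO apex lowest, as for most oligodendrocyte genes, while the base pools overlapped. Gfap overlaps the long noncoding RNA gene Gm26668 on the opposite strand, which had 58.2 to 87.7 counts in a pool, where Gfap had 129 counts in cKO apex, 374 in control apex and 1845 or more in the other pools.

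Aqp4 (ENSMUSG00000024411, chromosome 18) did not follow the other genes. Its levels were 29.4 ± 0.0917 CPM in cKO base, 19.0 ± 0.796 CPM in cKO middle and 31.4 ± 0.748 CPM in cKO apex (SD, n = 3 libraries each). They were 16.5 ± 0.0842 CPM in control base, 35.3 ± 2.58 CPM in control middle and 33.9 ± 0.661 CPM in control apex (SD, n = 3 libraries each). The control middle and control apex libraries overlapped, so Aqp4 marks no single region. In cKO apex, where Mobp had 0.119 FPKM and Gfap 0.641 FPKM, Aqp4 had 6.32 FPKM and was the highest of the 10 genes.

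**Figure D1:**
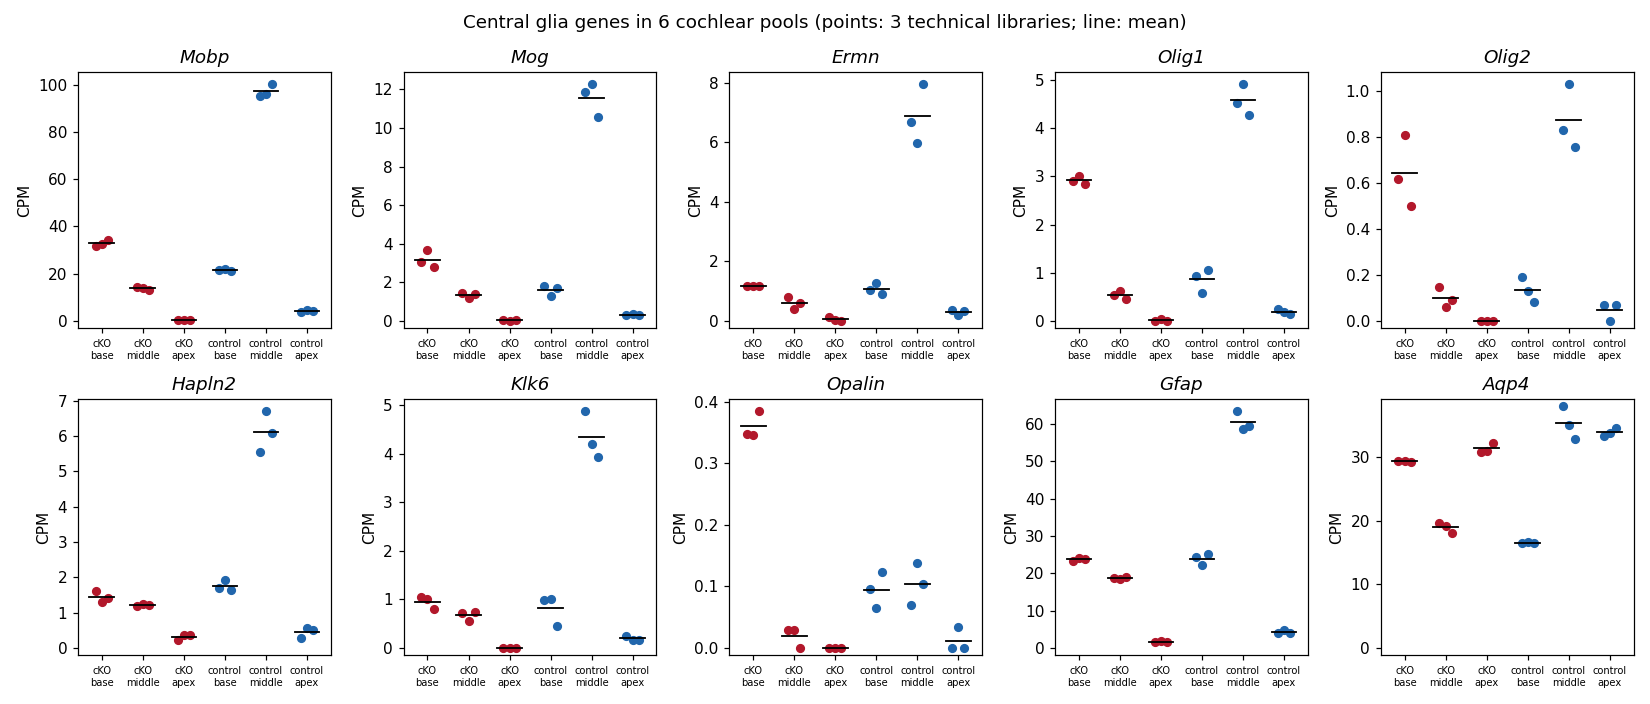
Level of each of the 10 genes in CPM (linear axis, own scale per gene) in the 3 cKO pools (red) and the 3 control pools (blue), where points are technical libraries and lines are means. Control middle is the highest pool in 9 genes, Opalin peaks in cKO base at 0.360 CPM, and Aqp4 stays at 31.4 CPM in cKO apex, where Mobp has 0.297 CPM.

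Summed over the 8 oligodendrocyte genes, the level was 43.4 ± 0.883 CPM in cKO base, 18.2 ± 0.843 CPM in cKO middle and 0.704 ± 0.0354 CPM in cKO apex (SD, n = 3 libraries each). The control sums were 27.7 ± 0.616 CPM in the base, 131.7 ± 2.23 CPM in the middle and 5.51 ± 0.512 CPM in the apex (SD, n = 3 libraries each). In bulk RNA, fewer cells of a type and less RNA per cell cannot be told apart. Mobp gave 72.8% to 77.2% of the summed counts in 5 pools and 42.1% in cKO apex (24 of 57 counts, exact 95% interval 29.1% to 55.9%). In cKO apex Hapln2 gave 26 of the 57 counts, or 45.6% (exact 95% interval 32.4% to 59.3%).

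Relative to Mobp, the mix of oligodendrocyte transcripts in cKO base was unlike that in control base, as a description with no test. Olig1 had 8.90 counts per 100 Mobp counts in cKO base (exact 95% interval 7.74 to 10.2), against 3.94 in control base (3.07 to 4.97), and 3.89 in cKO middle, 4.71 in control middle and 4.62 in control apex. Olig2 had 1.96 per 100 in cKO base (1.45 to 2.59), against 0.647 in control base (0.334 to 1.13). Hapln2 went the other way, with 4.43 per 100 in cKO base (3.64 to 5.35) against 8.19 in control base (6.90 to 9.67). Mog stood at 9.69 per 100 in cKO base against 7.39 in control base, Opalin at 1.10 against 0.431 and Ermn at 3.57 against 5.01, with intervals that overlapped in part. The lineage factors were thus high and the node gene low per Mobp count in the cKO base pool.

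**Figure D2:**
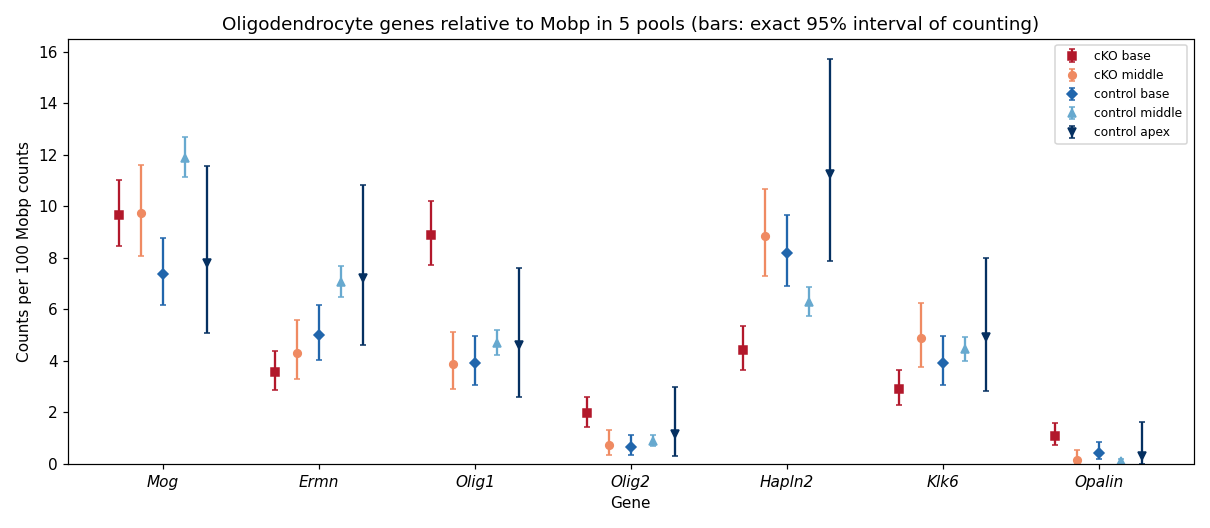
Counts of 7 oligodendrocyte genes per 100 Mobp counts in 5 pools, with exact 95% intervals of counting (cKO apex, with 24 Mobp counts, is left out). Olig1 stands at 8.90 in cKO base and at 3.89 to 4.71 in the other pools shown.

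In the apex, members were compared between genotypes without the pool that chose them. A gene was called at a Benjamini-Hochberg adjusted p under 0.05 over all tested genes and a log2 fold change of at least 1 in size, with edgeR's quasi-likelihood test. In cKO apex against control apex 6 of the 9 tested members were called lower, where 0.553% of all tested genes were, and none higher, where 1.49% were. Mobp fell by 3.72 ± 0.305 on the log2 scale (SE, edgeR adjusted p = 1.25e-17), a CPM 13.5-fold lower (95% interval 8.95 to 21.4), and Gfap fell by 1.42 ± 0.147 (SE, adjusted p = 8.73e-11). Ermn fell by 2.43 ± 0.777 (SE, edgeR adjusted p = 0.00373), on 4 counts in cKO apex against 25 in control apex.

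The other 3 calls in the apex rest on few counts. Klk6 had 0 counts in cKO apex against 17 in control apex, at least 5.32-fold lower with the floor of 3 counts over the group (edgeR adjusted p = 0.000328). Mog had 2 counts against 27, a ratio 12.7-fold lower (exact 95% interval 3.19 to 110.1, edgeR adjusted p = 0.00015). Olig1 had 1 count against 16, a ratio 15-fold lower (exact 95% interval 2.34 to 630.5, edgeR adjusted p = 0.00162). Not passing were Olig2 with 0 counts against 4 (edgeR adjusted p = 0.0618), Hapln2 with a log2 difference of -0.47 ± 0.365 (SE, adjusted p = 0.311) and Aqp4 with -0.09 ± 0.0406 (SE, adjusted p = 0.0763). The median log2 change of the 9 was -3.43, or -2.41 with the genes at 0 counts set to their bound, against 0.0047 over all tested genes. A part of the choroid plexus and meninges genes moved with the members in this comparison: 5 of 12 were called lower in cKO apex, and none was at 0. The summed level of the 12, led by Ptgds, went the other way, at 21995 to 22058 CPM in cKO apex libraries against 18147 to 18210 CPM in control apex. The part of these genes in the member differences was not tested.

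In cKO base against control base the 2 lineage factors were called higher. Olig1 rose by 1.77 ± 0.195 on the log2 scale (SE, edgeR adjusted p = 2.24e-09) and Olig2 by 2.17 ± 0.464 (SE, edgeR adjusted p = 8e-05), with every cKO base library above every control base library. These 2 of 9 members were called higher, where 2.51% of all tested genes were called higher, and none was called lower, where 0.514% were. Mog, Mobp and Aqp4 passed the test on p but not the fold threshold, with log2 differences of 0.99 ± 0.161 (SE, edgeR adjusted p = 4.57e-06), 0.60 ± 0.044 (5.21e-14) and 0.82 ± 0.0486 (2.6e-16). Ermn at 0.11 ± 0.244, Klk6 at 0.17 ± 0.264, Hapln2 at -0.28 ± 0.184 and Gfap at -0.02 ± 0.0485 did not pass (SE, edgeR adjusted p from 0.251 to 0.814). The count of calls depended on the libraries: it was 3 to 4 when a library of these pools was left out in turn, and 4 without control base replicate 1 and without control base replicate 3, where Mog passed the fold and Opalin was called. Opalin enters the tested genes only through cKO base, the pool where it is high, so its call is no support and the counts with it are inflated by it.

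Genes of cerebellar and hindbrain neurons were also higher in cKO base than in control base, where the median log2 change of the 9 tested members was 0.60. Of 17 tested genes of that list (18 in all), 13 were called higher in cKO base than in control base, where 2.51% of all tested genes were. The median log2 change of the list was 4.26, or 3.57 with genes at 0 counts set to their bound. Gabra6, a GABA receptor subunit of cerebellar granule cells, had 570, 582 and 550 counts in cKO base and 0 in every control base library. Pcp2, a Purkinje cell gene, averaged 10.3 CPM in cKO base and 0.177 CPM in control base, and Slc32a1, the vesicular transporter of inhibitory neurons, had 406 counts against 1. Gabra6, Pcp2 and Slc32a1 were named after their values were seen. At least these entered the tested genes only through cKO base, the pool where they are high. Their calls are therefore no support, and the count of calls and the median include them. The list's summed level was 1379 to 1384 CPM in cKO base libraries, where no gene was at 0, against 937 to 963 CPM in control base, where Gabra6 and Skor2 were at 0. Of the 4 most abundant genes of the list, Calb1 was called higher, at 24.9 against 6.61 CPM, and Itpr1, Zic2 and Pcp4 were not called. The list did not move with the members in every comparison. In cKO apex against control apex, 1 of the 17 was called lower and 2 higher, with a median of 0.0276. Of all tested genes, 0.553% and 1.49% were called lower and higher there. In control apex against control base the median of the list was 0. The part of these genes' source in the member differences of the base was not tested.

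The genotype difference of the apex was set against that of the base in the same fit. The log2 difference in the apex minus that in the base was -4.32 ± 0.308 for Mobp (SE, edgeR adjusted p = 4.63e-19) and -1.40 ± 0.154 for Gfap (SE, edgeR adjusted p = 1.3e-09). In all 7 of 9 members were called in this direction, where 1.56% of all tested genes were. Hapln2, at -0.18 ± 0.407 (SE, edgeR adjusted p = 0.8), showed no detectable difference of this kind, and Aqp4, at -0.91 ± 0.0633 (SE, edgeR adjusted p = 7.63e-14), stayed under the fold threshold.

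**Figure D3:**
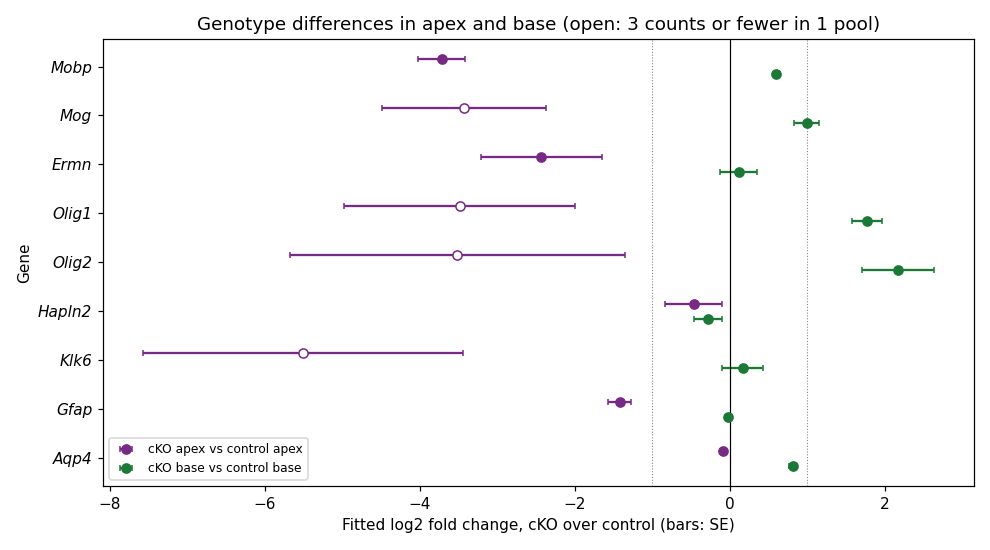
Fitted log2 fold change of cKO over control in the apex (purple) and in the base (green) for the 9 tested genes, with bars of 1 SE and dotted lines at the fold threshold. Mobp stands at -3.72 in the apex and 0.60 in the base. Open points have 3 counts or fewer in 1 pool, so that their fitted value depends on the prior count of the fit and is no bound.

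In the middle, where the control pool chose the genes, 8 of 9 members were past the fold on the lower side in cKO, where 0.776% of all tested genes were. The fitted log2 differences were -3.54 for Ermn, -3.12 for Mog, -3.10 for Olig1 and Olig2, -2.84 for Mobp, -2.69 for Klk6, -2.34 for Hapln2 and -1.71 for Gfap. Aqp4, at -0.91, lay just inside the threshold. Of the control regions, control middle was past the fold on the higher side in 9 members against control base, where 1.87% of all tested genes were, and in 8 against control apex, where 3.6% were. These values say how the genes were picked and nothing more.

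Along the axis of the cochlea, the remaining pools could be tested. In control apex against control base, 7 of 9 members were called lower, where 3.2% of all tested genes were. Gfap fell by 2.53 ± 0.0811 on the log2 scale (SE, edgeR adjusted p = 2e-26), Mobp by 2.48 ± 0.0845 (1.78e-26), and Mog, Olig1, Klk6, Hapln2 and Ermn fell by 1.94 to 2.39. Olig2, with 4 counts in control apex against 12 in control base, did not pass (edgeR adjusted p = 0.0728). Aqp4 went the other way, at 0.97 ± 0.0466 (SE, edgeR adjusted p = 2.37e-19), under the fold threshold. Choroid plexus and meninges genes moved with the members, with 5 of 12 called lower, 1 higher and a median of -0.65, a summed level of 18147 to 18210 CPM in control apex against 25886 to 25975 CPM in control base, and none at 0. Of 15 other astrocyte genes 5 were called lower, with a median of -0.61, and the part of either list was not tested.

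The knock-out had its own order of regions. In cKO apex against cKO base 8 of 9 members were called lower, all but Aqp4, where 3.81% of all tested genes were. Mobp fell by 6.80 ± 0.296 on the log2 scale (SE, edgeR adjusted p = 1.75e-33), a CPM 110.5-fold lower (95% interval 74.1 to 172.8), and Gfap fell by 3.93 ± 0.131 (SE, adjusted p = 1.03e-28). Klk6 was at least 25.7-fold lower and Olig2 at least 17.3-fold lower, both with 0 counts in cKO apex. Other lists moved with them: 13 of 17 cerebellar and hindbrain genes were called lower (median -4.88, or -4.26 with genes at 0 counts set to their bound), with a summed level of 876.2 to 886.2 CPM in cKO apex against 1379 to 1384 CPM in cKO base and Gabra6 and Skor2 at 0 in cKO apex. Gabra6, Pcp2 and Slc32a1 are among the 13 and entered the tested genes only through cKO base, so their calls are no support. Of 12 choroid plexus and meninges genes 5 were called lower, with 21995 to 22058 CPM against 28376 to 28453 CPM and none at 0, and the part of either list was not tested. The 8 genes also stood higher in cKO middle than in cKO apex, where 2.93% of all tested genes were called higher, with Mobp at 5.52 ± 0.297 (SE, edgeR adjusted p = 1.18e-27). In that comparison 6 of 17 cerebellar and hindbrain genes were called higher, while the median log2 change of that list was only 0.0141. Of 12 choroid plexus and meninges genes 5 were called higher, with a median of 0.869.

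In cKO middle against cKO base, 5 of 9 members were called lower, where 1.35% of all tested genes were. The lineage factors had the largest fitted falls, Olig2 by 2.68 ± 0.5 and Olig1 by 2.47 ± 0.218 on the log2 scale (SE, edgeR adjusted p = 3.42e-06 and 1.78e-12), and Mobp fell by 1.28 ± 0.0481 (5.83e-23) and Mog by 1.27 ± 0.161 (2.54e-08). Ermn was called at -1.0 ± 0.268 (SE, edgeR adjusted p = 0.00216), and the call was lost without cKO base replicate 2 (-0.99) and without cKO middle replicate 2 (-0.77). Hapln2, Klk6, Gfap and Aqp4 did not pass the call, at -0.28, -0.53, -0.37 and -0.66. The regional comparisons share pools with each other and with the genotype comparisons, so they are not independent. The cerebellar and hindbrain list moved here too, with 12 of 17 tested genes called lower in cKO middle than in cKO base. Gabra6, Pcp2 and Slc32a1 are among the 12 and entered the tested genes only through cKO base, so their calls are no support.

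Myelin genes that Schwann cells share with oligodendrocytes had smaller differences. Of the 10 genes none was called in any tested comparison by edgeR, DESeq2 or limma. Their differences still exceeded the spread between technical libraries: all 10 were lower in cKO apex than in control apex at an unadjusted edgeR p under 0.05, with a median log2 change of -0.33, and in cKO base against control base 8 were lower and 1 higher, with a median of -0.19. Of all tested genes, 47.2% in the apex and 43.1% in the base passed the same cut in either direction. Mbp averaged 845.0, 1151 and 1036 CPM in the base, middle and apex of cKO, and 975.7, 1509 and 1331 CPM in those of control. Mbp had its highest mean in control middle, as most oligodendrocyte genes had, within a range of less than 2-fold. The list also holds Cnp and Cd9, which ranged from 279.1 to 481.8 CPM and from 329.2 to 390.8 CPM over the pools.

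Peripheral myelin genes were abundant everywhere. None of the 14 Schwann cell genes was called between genotypes in apex or base by edgeR, DESeq2 or limma, with medians of -0.21 and -0.32, while 13 in the apex and 13 in the base had an unadjusted p under 0.05, as did 47.2% and 43.1% of all tested genes. Pmp22, a membrane protein of Schwann cell myelin, averaged 669.8, 965.9 and 856.2 CPM in base, middle and apex of cKO and 780.4, 883.7 and 1061 CPM in those of control, and Prx and Drp2 were also lowest in cKO base and highest in control apex. In cKO middle against cKO base Ngfr and Pmp2 were called higher, and in cKO apex against cKO base Ngfr, Sox2 and Pmp2 were, genes named after their values were seen. The share of all tested genes called higher in these comparisons is not given here, so no result about the list is drawn from these calls. The 14 spiral ganglion neuron genes, among them Calb2, Snap25, Nefh and Nefm, had summed levels of 3622, 6345 and 6205 CPM in cKO base, middle and apex, and 5647, 6870 and 8444 CPM in the control regions, and none was called between genotypes in apex or base by these tools, with 14 and 13 at an unadjusted p under 0.05. Of 9 genes of microglia, the macrophages of the central nervous system, among them Csf1r, Tmem119 and Sall1, none was called in any tested comparison by these tools. At an unadjusted p under 0.05 the microglia genes numbered 3 of 9 in the apex and 6 of 9 in the base between genotypes, beside the same 47.2% and 43.1% of all tested genes.

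**Figure D4:**
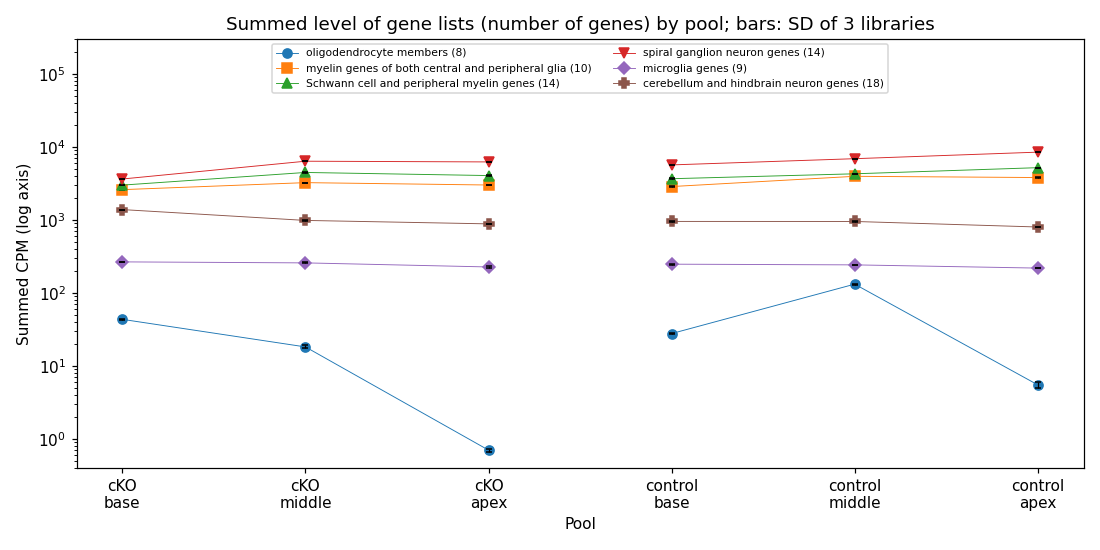
Summed CPM of 6 gene lists in each pool on a log axis, with bars of the SD over 3 libraries. The 8 oligodendrocyte genes run from 0.704 CPM in cKO apex to 131.7 CPM in control middle, while Schwann cell genes run from 2988 CPM in cKO base to 5176 CPM in control apex.

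Between genotypes in apex and base, other genes of the oligodendrocyte lineage were mostly unlike the 8. Of 20 such genes none was called between genotypes in apex or base by edgeR, DESeq2 or limma, while 10 and 13 had an unadjusted p under 0.05 (47.2% and 43.1% of all tested genes), and the medians were -0.13 and 0.06. In comparisons with control middle, which have no test, a part of the 20 went with the members. In control middle 9 were past the fold on the higher side against control apex (3.6% of all tested genes) and 5 against control base (1.87%). In cKO middle against control middle 5 were past it on the lower side (0.776%), and none went the other way. Nkx6-2 and Nkx2-2 were among them each time and passed the filter through control middle. The most abundant of the 20, Cldn11, Pdgfra, Gjc3 and Bcas1, had lowest pool means of 61.3 to 166.1 CPM, in cochlear tissue where other cells also make them, and their levels in cKO apex were 197.2, 123.1, 74.8 and 71.7 CPM. In cKO apex against cKO base 6 of the 20 were called lower, where 3.81% of all tested genes were. Among them were Nkx6-2 and Nkx2-2, homeodomain factors of the lineage, and Enpp6, an enzyme of newly formed oligodendrocytes, named after its values were seen. In control apex against control base 2 of the 20, Enpp6 and Nkx6-2, were called lower, where 3.2% were. Nkx2-2 and Nkx6-2 were also called lower in cKO middle than in cKO base (1.35% of all tested genes), and Enpp6 higher in cKO middle than in cKO apex (2.93%). Adamts4 was called lower in the apex difference minus the base difference (1.56%).

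Other astrocyte genes differed in the base. In cKO base 5 of 15 were called higher than in control base, where 2.51% of all tested genes were. The log2 changes were 2.28 for Grin2c, 2.13 for Ntsr2, 1.87 for Itih3, 1.62 for Mlc1 and 1.39 for Acsbg1, all chosen after their values were seen. In cKO apex against control apex none of the 15 was called by edgeR, DESeq2 or limma, with 10 at an unadjusted p under 0.05 (47.2% of all tested genes). All 5 were called lower in the apex difference minus the base difference, where 1.56% of all tested genes were. Grin2c, an NMDA receptor subunit also known from cerebellar granule cells, averaged 37.4 CPM in cKO base and 7.66 CPM in control base. Mlc1, a membrane protein of astrocyte endfeet, averaged 11.8 and 3.82 CPM. The most abundant genes of the list, S100b, Fam107a, Etnppl and Slc1a3, had 190.4 CPM or more in cKO apex. They are also expressed by cells of the cochlea. The cerebellar and hindbrain genes described above moved with these 5 genes, and their part was not tested.

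Ranked over the 6 pools by Pearson r of log2(CPM + 0.1) with the mean profile of the 8 oligodendrocyte genes, among 602 genes that ranged over at least 2 log2 units, the 10 nearest were Glycam1 (r = 0.979), Csn3 (0.965), Nkx6-2 (0.963), Slc39a12 (0.959), Cck (0.953), Adamts4 (0.944), Nkx2-2 (0.941), Mlc1 (0.936), Ntsr2 (0.934) and Gabra2 (0.836). The points are 6 pools that share libraries and depth with the members, so the values are descriptions with no p. Among the 6 is control middle, the pool that chose the members. Glycam1, Csn3, Cck and Nkx2-2 had low levels of at most 0.541, 0.759, 0.633 and 0.388 CPM. Their means in both apex pools were under the floor of 3 counts in a library. Nkx6-2 and Nkx2-2 passed the filter on low counts through control middle, and Glycam1 and Csn3 may have done so as well. The ranks of these genes are therefore no support. Each tested member was also set against the mean profile of the 8 oligodendrocyte genes, Opalin included, without the gene itself. This r ran from 0.936 for Olig2 to 0.996 for Mog, and was -0.02 for Aqp4. The members were picked by control middle, so high values among them are in part built in and are no support. Gfap was nearest to Glycam1, Csn3 and Slc39a12 (r = 0.954, 0.949 and 0.931). Aqp4 was nearest to Lhx1, Lhx1os and Gpr26 (r = 0.914, 0.900 and 0.881), 3 genes with low levels of at most 2.21 CPM.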

How the data were processed

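RNA of 1 pool per cochlear region and genotype was sequenced as 3 technical libraries, prepared with TruSeq RNA v2 and Ribo-Zero. Of tools and builds, STAR 2.5.2b, Cuffdiff 2.2.1 and GRCm38/mm10 stand in the submitters' processing notes, with no roles. The authors deposited expected counts, which are estimated counts per gene and library, not scaled, and FPKM per gene and library. How counts were made is not given in the sources used here. Of a library's count values 89.2% to 89.9% were whole within 1e-06, and all were rounded for the models. The members and gene lists were chosen with earlier results of these data known.

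Counts were fitted with edgeR 4.0.16 (R 4.3.3): filterByExpr kept 17901 of 46583 genes, TMM factors ran from 0.977 to 1.03, and a quasi-likelihood fit of 6 groups left 12 residual degrees of freedom. P-values are two-sided. The SE is the larger of that of the fit and that of counting. The p-values come from the fit alone, so a p-value can be smaller than the SE printed beside it would give. For Mobp in the apex difference minus the base difference, the SE was 0.195 from the fit and 0.308 from counting. Folds in CPM have exact conditional intervals. The fit, tested on simulated data for cKO middle against control middle over 17678 genes, recovered 100 of 100 genes changed by 1.5 and 100 of 100 changed by 2 on the log2 scale. The changed genes were drawn only from genes with higher counts, with little spread beyond counting, and that comparison has no test here. The recovery therefore does not cover calls that rest on few counts. Alternatives were RLE factors, no filter, DESeq2 1.42.0, limma 3.58.1 on log2(FPKM + 1), a call on adjusted p alone, a replicate block and leaving out each library.

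Named were the members, the 4 most abundant genes of each other list, the nearest profiles and Fst. Results for some of these genes are not reported here. The lists were oligodendrocyte, astrocyte, shared myelin, Schwann cell, spiral ganglion, cerebellum and hindbrain, microglia, choroid plexus and meninges, and cochlear genes. Genes were located in GENCODE M21, which held 45988 of them.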

Additional observations from a re-analysis of the deposited data

Results flagged for a closer look

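For 7 genes the genotype difference in the apex was unlike that in the base, by a test of the difference itself (edgeR's quasi-likelihood test, Benjamini-Hochberg adjusted over 17901 genes). The log2 difference of cKO and control in the apex minus that in the base was -4.32 for Mobp (adjusted p = 4.63e-19), -4.42 for Mog (adjusted p = 5.88e-06), -5.26 for Olig1 (adjusted p = 9.95e-06) and -5.69 for Olig2 (adjusted p = 0.0072). It was -5.67 for Klk6 (adjusted p = 0.000623), -2.54 for Ermn (adjusted p = 0.00768) and -1.40 for Gfap (adjusted p = 1.3e-09). Olig2 and Klk6 had 0 counts in cKO apex, Olig1 had 1 and Mog had 2, so the fitted sizes of these 4 depend on the prior count. The cerebellar and hindbrain genes of the cKO base pool enter the base side of this difference, and their part was not tested.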

How the results depend on the processing

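With limma on log2(FPKM + 1), where the pseudocount shrinks changes of low genes, the number of called members was 1 in cKO apex against control apex, 0 in cKO base against control base, 2 in control apex against control base, 1 in cKO middle against cKO base, 4 in cKO apex against cKO base, 2 in cKO middle against cKO apex and 1 for the apex difference minus the base difference. Calls on adjusted p alone in cKO base against control base came to 5. Leaving out each library in turn gave 3 to 4 calls there, 6 to 7 in cKO apex against control apex, 7 to 8 in control apex against control base, 5 to 6 in cKO middle against cKO base, 8 to 9 in cKO apex against cKO base, 8 in cKO middle against cKO apex and 7 for the difference of differences. Where Opalin entered the tested genes in these runs, it did so only through cKO base. Ranges for comparisons with that pool may therefore be inflated by its call, which is no support. Direction turned for values that had not passed: Hapln2 in the apex stood at 0.082 with limma, Gfap in the base at 0.011 with limma and at -0.069 to 0.014 when a library was left out, above 0 without control base replicate 3, and Klk6 in the base at -0.082 without that library. Olig2 in the apex was called without control apex replicate 2 (-4.05, adjusted p = 0.0297). Ermn in cKO middle against cKO base lost its call without the filter on low counts. Replicate numbers did not pair the libraries: deviations of libraries with the same number correlated at -0.176 to 0.33 (median 0.0046), and with the replicate block 6 members were called in the apex and 2 in the base, as without it. DESeq2 and RLE factors gave the same numbers of called members in the tested comparisons. For the other lists DESeq2 differed in 5 cases, among them 3 choroid plexus and meninges genes against 4 in cKO base against control base, and 15 cerebellar and hindbrain genes against 12 for the difference of differences. Depth limits the cKO apex pool, where the 8 oligodendrocyte genes had 57 counts in all.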

Other observations

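Genes of choroid plexus and meninges, tissues next to the cochlear nerve root, differed between genotypes in another pattern. Of 12 such genes, Slc22a6, Slc6a12, Slc6a13, Mfrp and Slc47a1 were called lower in cKO apex than in control apex, and the same genes without Mfrp in cKO base against control base (edgeR, named after their values were seen). Of all tested genes, 0.553% were called lower in the apex and 0.514% in the base. Slc22a6, an organic anion transporter, averaged 0.358 CPM in cKO apex and 1.88 CPM in control apex, and 7.13 CPM in cKO base and 15.8 CPM in control base. Slc47a1, an organic cation exporter, averaged 7.12 CPM in cKO base and 19.97 CPM in control base, and in the middle it had 20.4 CPM in cKO and 6.25 CPM in control. The middle was therefore the region where this gene was higher in cKO, while Mobp was lower there. The most abundant genes of the list, Ptgds, Slc13a4, Kl and Aldh1a2, were not called between genotypes in apex or base. Skor2, a factor of cerebellar Purkinje cells named after its values were seen, had 24, 23 and 14 counts in cKO middle and 0 in every control middle library. It had 4, 15 and 13 counts in cKO base against 0 in control base. Other genes of its list did not follow it in the middle. Pcp2 averaged 0.112 CPM in cKO middle and 0.140 CPM in control middle, Gabra6 had 4 and 2 counts, and Slc32a1 had 2 in each. The median log2 change of the cerebellar and hindbrain list there was 0.391, with no test.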
